A study of Mus musculus with 12 samples.

Results

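The genes of MHC antigen presentation were measured in spinal cord preparations from control and Tet1 mutant mice, either unlesioned or 4 days after demyelination. Members were found by the mouse symbol of their Ensembl identifier, and 10 of 10 were present among 54838 genes listed and among the 31109 genes that passed the filter on low counts. They were H2-Aa, H2-Ab1, H2-Eb1, Cd74 and Ciita of the class II pathway, and H2-K1, H2-D1, B2m, Tap1 and Psmb8 of the class I pathway. The data hold 12 RNA-seq libraries from mice at postnatal day 60, with 4 groups of 3 libraries. Control mice were Olig1+/+;Tet1fl/fl and Tet1 mutants were Olig1cre/+;Tet1fl/fl, so that the floxed Tet1 alleles were carried by both genotypes and the mutants also had 1 Olig1 allele replaced by cre. The cre is active in cells of the Olig1 lineage, which are mainly oligodendroglial, and other cells of the preparation keep an intact Tet1. Lesions were made by injecting lysolecithin (LPC), a lipid that strips myelin, into the ventrolateral white matter, and were collected at 4dpl (4 days post-lesion), whereas unlesioned tissue came from the opposite side of injected cords. The tissue was dissociated and enriched for oligodendroglial cells over a Percoll gradient, without sorting.

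MHC class I molecules present peptides from proteins made inside the cell. The immunoproteasome cuts these proteins, the TAP transporter carries the peptides into the endoplasmic reticulum, and a heavy chain paired with beta-2 microglobulin displays them to cytotoxic T cells. Class II molecules present peptides from ingested material to helper T cells, after the invariant chain Cd74 has guided them to the endosome, and are made mainly by dendritic cells, B cells and activated macrophages or microglia. In the nervous system both pathways are low at rest and rise in microglia and infiltrating cells in inflammation, and interferon gamma induces them through Irf1 and the coactivators Ciita (class II) and Nlrc5 (class I).

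The class II genes share a promoter layout that Ciita acts through. RefSeq promoters of GRCm38.p6 were found for 7 of 10 members, and H2-Ab1, Cd74 and Ciita had no entry in the table used. The 160 bases before the start of H2-Aa and H2-Eb1 are shown because their X and Y boxes are the sites of this layout. Capitals mark matches to the X1 core TNGCAAC, the X2 or cyclic AMP response element core TGACG and the Y box, an inverted CCAAT box whose core is GATTGG, on either strand.
H2-Aa, chr17:34287824-34287983, minus strand: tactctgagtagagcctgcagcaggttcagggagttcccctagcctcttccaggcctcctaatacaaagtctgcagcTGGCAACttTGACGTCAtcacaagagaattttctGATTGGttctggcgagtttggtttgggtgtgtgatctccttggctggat
H2-Eb1, chr17:34305707-34305866, plus strand: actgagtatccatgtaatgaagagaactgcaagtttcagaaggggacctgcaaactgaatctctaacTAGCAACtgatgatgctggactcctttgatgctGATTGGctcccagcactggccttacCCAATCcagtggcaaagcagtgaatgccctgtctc
The X1 core lay at positions -83 to -77 from the start in H2-Aa and at -93 to -87 in H2-Eb1, followed by a Y box on the same strand at -49 to -44 and at -60 to -55. In H2-Aa the 2 matches to the X2 core, 1 on each strand, overlapped each other, and H2-Eb1 had no match to these letters. The class I genes are shown for comparison, with capitals also for the interferon response core TTTCACT and the kappaB core GGGATTC.
H2-K1, chr17:34000334-34000493, minus strand: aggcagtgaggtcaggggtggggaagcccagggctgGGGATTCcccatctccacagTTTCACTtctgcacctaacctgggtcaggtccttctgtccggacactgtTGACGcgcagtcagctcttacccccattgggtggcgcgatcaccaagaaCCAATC
H2-D1, chr17:35262934-35263093, plus strand: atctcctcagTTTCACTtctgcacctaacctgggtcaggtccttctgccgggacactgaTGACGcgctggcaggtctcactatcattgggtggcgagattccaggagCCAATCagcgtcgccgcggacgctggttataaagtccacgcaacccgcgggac
B2m, chr2:122147527-122147686, plus strand: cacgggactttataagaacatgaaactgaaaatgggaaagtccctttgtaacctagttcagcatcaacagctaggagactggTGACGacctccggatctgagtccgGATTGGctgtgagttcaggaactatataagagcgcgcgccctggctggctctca
H2-K1 and H2-D1 had the interferon response core, at -104 to -98 and -150 to -144, and the kappaB core, at -124 to -118 and, outside the stretch shown, at -170 to -164. B2m, the light chain gene, had the X2 core at -78 to -74 and a Y box at -54 to -49. Tap1 had an X2 core at -86 to -82 and a Y box at -222 to -217, H2-D1 also matched the X1 core on the other strand at -212 to -206, and Psmb8 matched none of the 5 motifs. Among 32851 promoters searched over the same 250 bases, 8.77% matched the X1 core, 17.8% the X2 core, 14.6% the Y box, 3.7% the interferon response core and 2.54% the kappaB core. A match describes the letters only, and positions count from the RefSeq start. For H2-D1 that start (35263094) lies inside the span of the counted gene given below. Its motif positions therefore need not compare with those of H2-K1.

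Most of the genes lie on chromosome 17, where the mouse MHC is (positions in GRCm38). H2-Aa (34282744 to 34287827), H2-Ab1 (34263209 to 34269418), H2-Eb1 (34305877 to 34316199), Tap1 (34187553 to 34197225), Psmb8 (34197721 to 34201454), H2-K1 (33996017 to 34000333) and H2-D1 (35262730 to 35267499) make up this group. B2m is on chromosome 2 (122147686 to 122153083), Ciita on chromosome 16 (10480059 to 10528418) and Cd74 on chromosome 18. Counts are sums over the exons of each gene. Tap1 overlaps Psmb9 on the opposite strand, Ciita overlaps Dexi and B2m overlaps Patl2 in the same way, and the strand setting of the counting is not given in the sources used here, so reads in the shared stretches cannot be assigned. H2-K1 and H2-D1 are similar members of one family, and their split by unique alignment is uncertain and was not tested.

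Levels are given as CPM, the count of a gene over the library total after TMM normalization, and per kilobase of exon where genes are compared with each other. On the per kilobase scale B2m had the highest mean over the 12 libraries, 2349 CPM per kb (range 1071 to 3805). H2-D1, a classical class I heavy chain, followed with 978.5 (range 543 to 1618), then Cd74 with 403 (range 181 to 960.0) and the other heavy chain, H2-K1, with 350.2 (range 226 to 606). Cd74 exceeded H2-K1 in 5 of 12 libraries, so that these neighbours did not differ beyond their spread. The class II chains H2-Ab1, H2-Eb1 and H2-Aa were at 165.5, 90.4 and 78.7 CPM per kb, the immunoproteasome subunit Psmb8 at 47.2 and the transporter subunit Tap1 at 20.4. Ciita, the class II coactivator, was lowest at 0.949 CPM per kb (243 to 942 counts in a library). H2-Eb1 exceeded H2-Aa in 11 of 12 libraries and H2-Aa exceeded Psmb8 in 10, and the other neighbours kept their order in 12 of 12. Excluding the control unlesioned replicate 1, the fold between the highest and the lowest library was 6.09 to 6.51 for H2-Aa, H2-Ab1 and H2-Eb1, 4.45 for Cd74, and 1.93 to 3.55 for the remaining 6 genes. The class II chains therefore varied most between libraries.

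Total counts were between 34805086 and 67251544 per library. At least 1 count was found for 40023 to 44516 genes in unlesioned libraries and for 33964 to 37516 at 4dpl, and the median of all tested genes was lower after lesion on the TMM scale, by -0.36 (log2) in control, -0.18 in mutant and -0.28 averaged over genotypes. With library totals in place of TMM the averaged shift was -0.69, and with a stricter filter (1 CPM in 6 libraries) it was close to 0, so directions after lesion are set beside this shift, and the scale is named where it turns them. The TMM factor was 0.881 in the library labelled control unlesioned replicate 1, between 1.14 and 1.30 in the other 5 unlesioned libraries and between 0.806 and 0.932 at 4dpl. Over all tested genes, this library's mean Pearson correlation was 0.942 with the other control unlesioned libraries, 0.951 with control 4dpl and 0.953 with mutant 4dpl. Mutant unlesioned replicate 1 likewise correlated at 0.95 with its own group and 0.959 with mutant 4dpl. The gene-level count of Tet1, between 9.94 and 21.5 CPM, did not separate the genotypes (control 11.7 to 18.3, mutant 9.94 to 21.5), and genotypes are taken from the labels. The count covers the whole gene and does not check the deletion of 1 exon in some cells. The labels number replicates only, so p-values measure the spread between these libraries.

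The MHC genes were highest, among unlesioned tissue, in 1 library. Control unlesioned replicate 1 had the highest level of the 6 unlesioned libraries for 10 of 10 members, where 21.1% of all tested genes were highest there. It was the highest of all 12 libraries for 7 of 10 members, against 7.04% of all genes; the exceptions were H2-Aa and H2-Eb1, highest in control 4dpl replicate 2, and B2m, highest in control 4dpl replicate 3. Over the mean of control unlesioned replicates 2 and 3, its level was 4.49-fold higher for Tap1, 4.47-fold for H2-Ab1, 4.30-fold for Cd74, 3.72-fold for H2-Aa, 3.56-fold for H2-Eb1, 2.64-fold for H2-K1, 2.56-fold for H2-D1, 2.54-fold for Ciita, 2.22-fold for B2m and 1.85-fold for Psmb8. Without TMM scaling the folds were 1.34 to 3.25 and the same counts of 10 and 7 members were highest there. These are descriptions of 1 library. It was kept under its label, and whether the label or the animal differs from the rest of the group was not tested, so the control unlesioned means and the lesion differences in control rest on it. Tests of the members and list counts below are given with and without it.

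**Figure D1:**
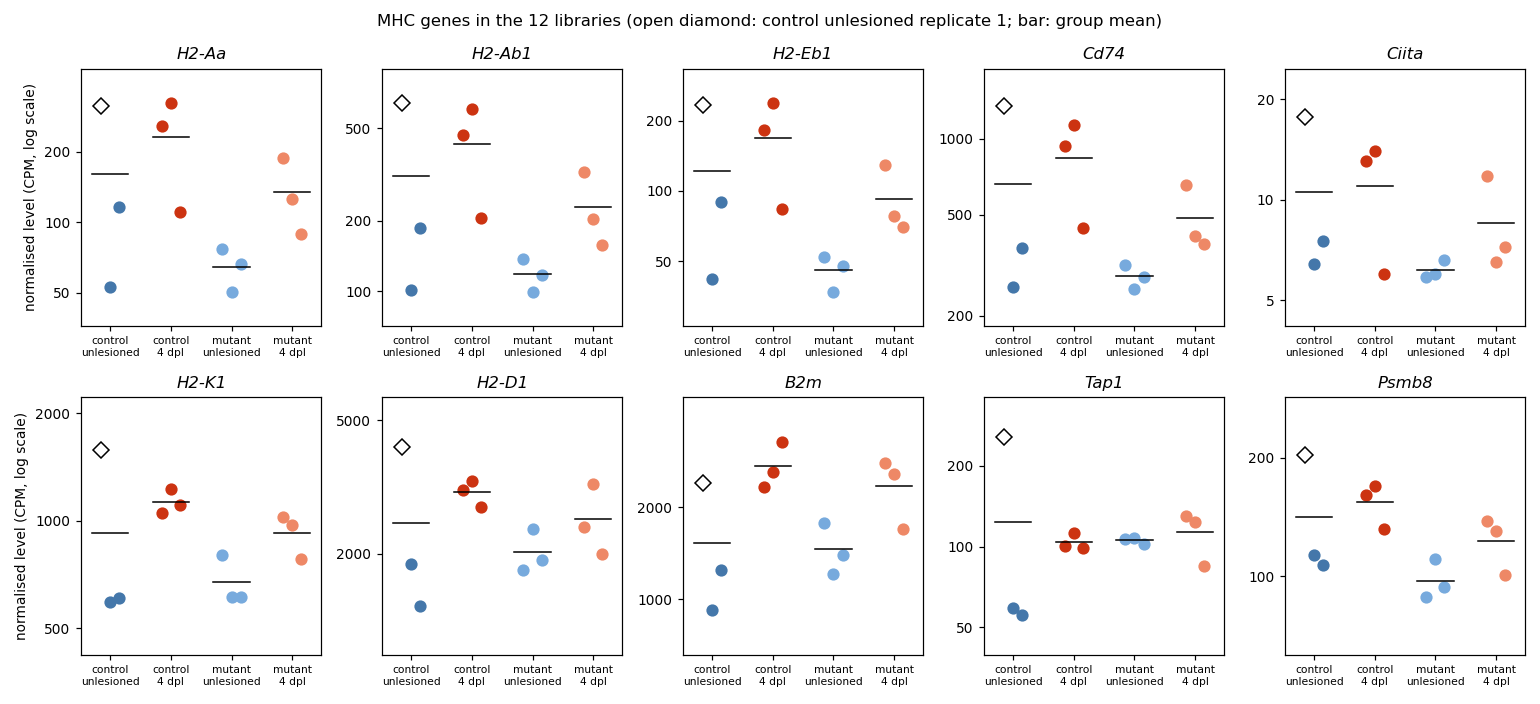
Normalised level (CPM, log axis) of each of the 10 MHC genes in the 12 libraries by group, with bars for group means of 3 libraries and an open diamond for control unlesioned replicate 1. That library lies above the other 5 unlesioned libraries in every panel, and its Tap1 level of 256 CPM compares with at most 130 in the other 11.

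H2-Aa and H2-Ab1 encode the alpha and beta chains of I-A, the class II molecule. H2-Aa was at 314, 52.8 and 116 CPM in control unlesioned replicates 1 to 3 and at 258, 323 and 111 CPM in control 4dpl replicates 1 to 3. In the mutant H2-Aa was at 76.9, 50.5 and 66.0 CPM unlesioned and at 189, 126 and 88.9 CPM at 4dpl. In control the groups overlapped, since unlesioned replicate 1 was as high as the lesioned libraries and 4dpl replicate 3 was lower than unlesioned replicate 3, whereas in the mutant each lesioned library was above each unlesioned one. H2-Ab1 was at 643, 101 and 187 CPM in control unlesioned and at 467, 606 and 205 CPM in control 4dpl libraries. In the mutant it was at 138, 99.5 and 117 CPM unlesioned and at 326, 203 and 158 CPM at 4dpl. The same 3 control libraries, unlesioned replicate 1 and 4dpl replicates 1 and 2, were high for both genes.

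H2-Eb1 encodes the beta chain of I-E. Its level was 233, 41.8 and 89.3 CPM in control unlesioned and 183, 240 and 83.3 CPM in control 4dpl libraries. In the mutant H2-Eb1 was at 52.1, 36.9 and 47.7 CPM unlesioned and at 130, 78.1 and 69.8 CPM at 4dpl, with no overlap. The partner chain was represented by the pseudogene H2-Ea-ps, which did not exceed 0.322 CPM in any library. Cd74, the invariant chain, was at 1354, 260.4 and 369 CPM in control unlesioned and at 941, 1134 and 444 CPM in control 4dpl libraries. In the mutant Cd74 was at 317, 255 and 285 CPM unlesioned and at 659, 414 and 384 CPM at 4dpl. Cd74 thus followed the chains it escorts, and the 4 libraries of highest Cd74 were control unlesioned replicate 1, control 4dpl replicates 1 and 2 and mutant 4dpl replicate 1.

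Ciita, the coactivator of class II transcription, was at 17.7, 6.42 and 7.50 CPM in control unlesioned and at 13.1, 13.97 and 5.99 CPM in control 4dpl libraries. In the mutant Ciita was at 5.86, 5.98 and 6.59 CPM unlesioned and at 11.8, 6.52 and 7.23 CPM at 4dpl. The same 4 libraries were highest, and the remaining 8 lay between 5.86 and 7.50 CPM whatever their group. Over the 12 libraries, log2 CPM of H2-Aa, H2-Ab1, H2-Eb1 and Cd74 correlated with each other at r = 0.98 to 0.99 over 6 pairs, and Ciita with these 4 at 0.91 to 0.95. With replicate 1 of control unlesioned left out, these ranges were 0.98 to 0.99 and 0.89 to 0.92 over 11 libraries. Libraries share depth, lesion state and cell makeup, so these values are a description.

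Among class I genes, H2-K1, a heavy chain, was at 1580, 590.5 and 608 CPM in control unlesioned and at 1048, 1224 and 1103 CPM in control 4dpl libraries. In the mutant H2-K1 was at 804, 612 and 611 CPM unlesioned and at 1024, 975 and 779 CPM at 4dpl. Control unlesioned replicate 1 was above each lesioned library, and in the mutant 4dpl replicate 3 fell within the unlesioned range. H2-D1 was at 4172, 1858 and 1401 CPM in control unlesioned and at 3100, 3301 and 2758 CPM in control 4dpl libraries. In the mutant H2-D1 was at 1785, 2375 and 1918 CPM unlesioned and at 2405, 3217 and 1993 CPM at 4dpl, with overlap. B2m, the light chain of class I molecules, was at 2410, 921 and 1249 CPM in control unlesioned and at 2331, 2617 and 3272 CPM in control 4dpl libraries. In the mutant B2m was at 1775, 1208 and 1395 CPM unlesioned and at 2796, 2570 and 1693 CPM at 4dpl, so that the groups overlapped by 1 library in each genotype. Correlations within H2-K1, H2-D1 and B2m were 0.70 to 0.87 over 3 pairs and 12 libraries, lower than among the class II genes.

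Tap1, a subunit of the peptide transporter, was at 256, 58.8 and 55.4 CPM in control unlesioned and at 101, 112 and 99.2 CPM in control 4dpl libraries. In the mutant Tap1 was at 107, 107 and 102 CPM unlesioned and at 130, 124 and 84.5 CPM at 4dpl. The 3 mutant unlesioned libraries were near the level of control 4dpl and above control unlesioned replicates 2 and 3. Psmb8, which replaces the constitutive subunit Psmb5 in the immunoproteasome, was at 204, 113 and 107 CPM in control unlesioned and at 161, 170.1 and 132 CPM in control 4dpl libraries. In the mutant Psmb8 was at 88.3, 110.3 and 93.6 CPM unlesioned and at 138, 131 and 101 CPM at 4dpl. Both peptide supply genes were highest in control unlesioned replicate 1.

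In control, none of the 10 members passed the thresholds for the lesion comparison (p under 0.01 and adjusted p under 0.05 in edgeR's quasi-likelihood test), where 10.1% of all tested genes did. B2m had the only unadjusted p under 0.05 (34% of all genes), with a log2 fold change of 0.84 (SE 0.37, adjusted p = 0.13). The class II genes were at log2 fold changes (4dpl over unlesioned) of 0.52 (SE 0.53) for H2-Aa, 0.46 (SE 0.55) for H2-Ab1, 0.47 (SE 0.51) for H2-Eb1, 0.35 (SE 0.52) for Cd74 and 0.06 (SE 0.41) for Ciita. H2-K1, H2-D1 and Psmb8 were at 0.28 (SE 0.36), 0.30 (SE 0.39) and 0.13 (SE 0.27), and Tap1 at -0.25 (SE 0.45). Ciita and Psmb8 were below 0 with library totals (-0.19 and -0.15) and with the stricter filter (-0.20 and -0.16). The median of the 10 was 0.32, beside -0.36 for all tested genes, and for no member were the 3 lesioned libraries above the 3 unlesioned ones (16.5% of all genes). DESeq2 called 0 members as well, and limma's voom with sample weights, which gave control unlesioned replicate 1 the lowest weight of the 12 libraries (0.26, the others 0.58 to 1.82), called 7 as higher, against 15.5% of all genes.

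In the 11 libraries without control unlesioned replicate 1, 8 of 10 members rose after lesion in control, against 12.2% of all tested genes called as higher. H2-Ab1 had a log2 fold change of 1.59 (SE 0.45, adjusted p = 0.0248), H2-Aa of 1.48 (SE 0.46, adjusted p = 0.0375), Cd74 of 1.44 (SE 0.38, adjusted p = 0.02) and H2-Eb1 of 1.39 (SE 0.44, adjusted p = 0.0387) in edgeR. B2m rose by 1.36 (SE 0.32, adjusted p = 0.0126), H2-K1 by 0.94 (SE 0.25, adjusted p = 0.0195), H2-D1 by 0.93 (SE 0.29, adjusted p = 0.0378) and Tap1 by 0.89 (SE 0.22, adjusted p = 0.014). Ciita (0.69, SE 0.37, adjusted p = 0.177) and Psmb8 (0.52, SE 0.21, adjusted p = 0.0914) did not pass. The median of the 10 was 1.15, beside -0.50 for all genes, and 7 members had all lesioned libraries above the remaining 2 unlesioned ones (26.4% of all genes). These calls rest on that choice of libraries and on the scale. The library left out was the one in which all 10 members were highest among unlesioned tissue. Leaving it out therefore raises their lesion differences in control and averaged over genotypes. The comparison with the share of all genes is not independent of that choice. With the same 11 libraries, DESeq2 called 8 members higher (12.7% of all genes) and RLE size factors 6 (10.5%), while library totals called 0 (2.96%) and the stricter filter 0 (10.3%). Under library totals the log2 fold changes were 0.01 (Psmb8) to 1.04 (H2-Ab1), and under the stricter filter 0.07 to 1.15 for the same genes, so all 10 stayed above 0.

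**Figure D2:**
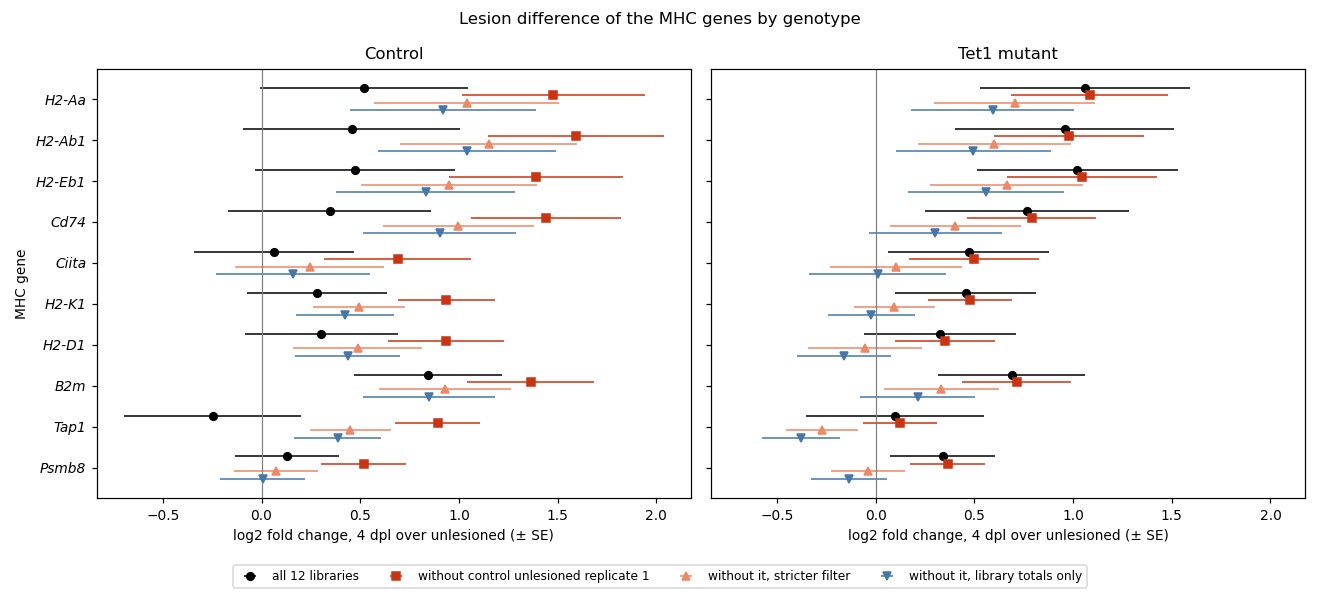
Log2 fold change (4dpl over unlesioned, bars are ± 1 SE) of each MHC gene in control (left) and Tet1 mutant (right), for all 12 libraries and for the 11 without control unlesioned replicate 1 under 3 scalings. In control H2-Ab1 moved from 0.46 to 1.59 when that library was left out, and in the mutant its value stayed between 0.49 and 0.98.

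In the Tet1 mutant no member passed the thresholds, where 0.135% of all tested genes did, and 0 of 10 had an unadjusted p under 0.05 (33.8% of all genes). The class II log2 fold changes were 1.06 (SE 0.53, adjusted p = 0.172) for H2-Aa, 1.02 (SE 0.51, adjusted p = 0.17) for H2-Eb1, 0.96 (SE 0.56, adjusted p = 0.227) for H2-Ab1, 0.77 (SE 0.52, adjusted p = 0.296) for Cd74 and 0.47 (SE 0.41, adjusted p = 0.414) for Ciita. B2m was at 0.69 (SE 0.37), H2-K1 at 0.46 (SE 0.36), Psmb8 at 0.34 (SE 0.27), H2-D1 at 0.33 (SE 0.39) and Tap1 at 0.10 (SE 0.45). The last 4 were below 0 with library totals, and Psmb8, H2-D1 and Tap1 also with the stricter filter. With RLE size factors Tap1 was at -0.04. The median of the 10 was 0.58, beside -0.18 for all genes. H2-Aa, H2-Ab1, H2-Eb1 and Cd74 were separated, each lesioned library above each unlesioned one (4 of 10 members, 18.8% of all genes). These mutant values do not use the control libraries except for the shared spread and scale. In the 11 libraries, 6 of 10 members had an unadjusted p under 0.05 (37.5% of all genes), and 0 were called, where 13.3% of all genes were. With 12 libraries DESeq2 called 0, and voom with sample weights called B2m as higher (1 of 10 members, 11.2% of all genes).

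Averaged over the genotypes, no member passed, where 32.8% of all tested genes did. B2m came closest, with a log2 fold change of 0.77 (SE 0.26, adjusted p = 0.0334), which passes the adjusted threshold but not the unadjusted one of 0.01, and it was the only one with an unadjusted p under 0.05 (52% of all genes). H2-Aa was at 0.79 (SE 0.37, adjusted p = 0.101), H2-Eb1 at 0.75 (SE 0.36, adjusted p = 0.104), H2-Ab1 at 0.71 (SE 0.39, adjusted p = 0.153), Cd74 at 0.56 (SE 0.37, adjusted p = 0.226) and Tap1 at -0.08 (SE 0.32, adjusted p = 0.86). For no member did the 6 lesioned libraries stand above the 6 unlesioned ones (7.44% of all genes). DESeq2 called B2m (13.1% of genes higher), and voom with sample weights 8 members (20.5%). In the 11 libraries, 9 of 10 rose in edgeR, the exception being Ciita (0.59, SE 0.25, adjusted p = 0.0631), against 17.7% of all genes called as higher, and Cd74 was the only one without overlap (11.5% of all genes). That count was again 0 with library totals or the stricter filter.

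Between genotypes in unlesioned tissue no member and no gene passed the thresholds (0% of all tested genes called by edgeR), and 4 of 10 members had an unadjusted p under 0.05, against 5.22% of all genes. These were H2-Eb1 with a log2 difference, mutant minus control, of -1.41 (SE 0.51, adjusted p = 0.787), H2-Ab1 with -1.39 (SE 0.56, adjusted p = 0.875), H2-Aa with -1.32 (SE 0.54, adjusted p = 0.875) and Cd74 with -1.21 (SE 0.52, adjusted p = 0.927). For H2-Aa the means were 161 ± 136 CPM (SD, n = 3) in control and 64.5 ± 13.3 CPM (SD, n = 3) in mutant. The control spread was set by replicate 1, and for no member were all mutant libraries below all controls (6.28% of all genes). Without this replicate the differences of the same genes were -0.52, -0.28, -0.38 and -0.14, none with an unadjusted p under 0.05. Tap1 turned from -0.23 (SE 0.45) to 0.89 (SE 0.22, adjusted p = 0.15), and Tap1 and H2-K1 then had all mutant libraries above both remaining controls (2 of 10 members, 14% of all genes). DESeq2 on these 11 libraries called Tap1 as higher and no other member, against 2.83% of all genes called as higher by DESeq2, and edgeR called 0% of genes.

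At 4dpl, the class II genes were lower in the mutant on average, with log2 differences of -0.89 (SE 0.56) for H2-Ab1, -0.87 (SE 0.51) for H2-Eb1, -0.79 (SE 0.52) for Cd74, -0.78 (SE 0.53) for H2-Aa and -0.37 (SE 0.41) for Ciita, none called (lowest p over the members 0.11, adjusted p 0.83 to 0.994, edgeR). For Cd74 the means were 839.5 ± 356 CPM (SD, n = 3) in control and 485.5 ± 151 CPM (SD, n = 3) in mutant, and control replicate 3 (444 CPM) lay within the mutant range. Unadjusted p was under 0.05 for 0 of 10 members, and 6.92% of all genes. H2-K1 was the only member separated, each mutant library being below each control (5.44% of all genes), with a log2 difference of -0.28 (SE 0.36). With control unlesioned replicate 1 left out, which enters this comparison through the shared spread and scale alone, no member was called, against 0.142% of genes, and the differences moved by less than 0.01. Cd74, H2-Ab1 and H2-Eb1 then had an unadjusted p under 0.05 (3 of 10 members, 8.03% of all genes).

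The change after lesion did not differ between the genotypes past the thresholds for any member, nor for any gene (0% called), and 0 members had an unadjusted p under 0.05 (3.81% of all genes). The interaction, the change in mutant minus the change in control, was between 0.41 and 0.55 for the 5 class II genes (0.55, SE 0.71, for H2-Eb1), and -0.16 (SE 0.53) for B2m. In the 11 libraries all 10 were below 0, from -0.15 for Psmb8 to -0.77 for Tap1 (SE 0.28, adjusted p = 0.743), and the class II genes were between -0.19 and -0.65. The sign of the genotype difference in lesion response thus turned with 1 library for 9 of 10 members, the exception being B2m.

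The immunoproteasome was compared with its constitutive counterparts within each library, which does not depend on scaling. The ratio of Psmb8 to Psmb5, each per kilobase, was 0.541 ± 0.137 (SD, n = 3) in control unlesioned, 0.461 ± 0.107 in control 4dpl, 0.606 ± 0.0318 in mutant unlesioned and 0.503 ± 0.108 in mutant 4dpl libraries, and the groups overlapped in both genotypes. Psmb9 over Psmb6 was 0.227 ± 0.119 in control unlesioned (0.135 to 0.361) and 0.103 ± 0.00593 in control 4dpl libraries (0.0986 to 0.11). In the mutant Psmb9 over Psmb6 was 0.284 ± 0.0837 unlesioned (0.207 to 0.373) and 0.147 ± 0.0338 at 4dpl (0.119 to 0.184). This ratio was lower in each lesioned library than in each unlesioned library of the same genotype, and control unlesioned replicates 2 and 3 were at 0.185 and 0.135, with replicate 1 at 0.361. Psmb10 over Psmb7 was 3.83 ± 0.391 in control unlesioned and 2.47 ± 0.566 in control 4dpl libraries, and 2.54 ± 0.13 and 2.10 ± 0.421 in the mutant. In control it was lower in each lesioned library (2.123 to 3.122) than in each unlesioned one (3.475 to 4.247). In the mutant the lesion states overlapped (2.389 to 2.615 unlesioned, 1.623 to 2.431 at 4dpl). Each mutant unlesioned library was below each control unlesioned one. Control unlesioned replicates 1 to 3 were at 4.25, 3.75 and 3.48 for this ratio and at 0.700, 0.463 and 0.462 for Psmb8 over Psmb5, so that without replicate 1 the latter lay inside the control 4dpl range (0.397 to 0.584). On the CPM scale, Psmb6 had a log2 fold change of 0.84 (SE 0.15, adjusted p = 0.00299) and Psmb9 of -0.20 (SE 0.23, adjusted p = 0.483) averaged over genotypes in edgeR.

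**Figure D3:**
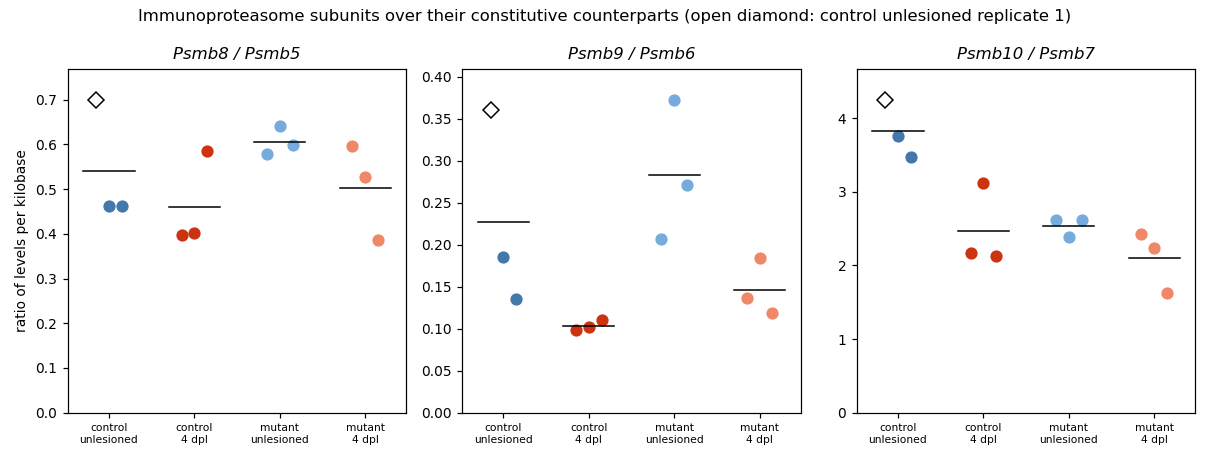
Ratio of each immunoproteasome subunit to the constitutive subunit it replaces, each as CPM per kilobase, in the 12 libraries by group, with bars for means of 3 libraries and an open diamond for control unlesioned replicate 1. For Psmb9 over Psmb6 the control libraries at 4dpl lie at 0.0986 to 0.11, below the unlesioned ones at 0.135 to 0.361.

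The other genes of each pathway were listed and read in the lesion comparison averaged over genotypes (edgeR, 32.8% of all genes called in either direction). Fewer of these calls were higher than lower, so the share of all genes that rose is smaller than this. Of 21 other class II pathway genes tested, 9 rose and 0 fell. Cd63, a tetraspanin of late endosomes, was at 1.34 (SE 0.18, adjusted p = 0.00204), the thiol reductase Ifi30 at 1.27 (SE 0.21, adjusted p = 0.00275) and the protease Ctsl at 1.67 (SE 0.28, adjusted p = 0.00281), all of them lysosomal or endosomal. The peptide loading chains H2-DMa (chosen after its values were seen) and H2-DMb1 also rose, by 0.64 and 0.63. Of 17 other class I pathway genes 7 rose and 0 fell, among them Mr1, which presents vitamin metabolites (1.85, SE 0.22, adjusted p = 0.0019), the chaperone Canx (1.27, SE 0.22, adjusted p = 0.00299) and Hfe, an iron regulator that pairs with B2m (1.18, SE 0.21, adjusted p = 0.00338). Nlrc5, the class I coactivator, did not pass (0.42, SE 0.39, adjusted p = 0.397), and in the 11 libraries it rose (1.1, SE 0.25, adjusted p = 0.00417). In those libraries 13 of the 21 class II and 13 of the 17 class I pathway genes rose, against 17.7% of all genes called as higher. Mr1, Canx, Cd63, Ifi30 and Ctsl were called in each of the 26 settings run for this comparison. Of 14 constitutive proteasome genes 12 rose, led by Psmb6, Psmb7 (0.69, SE 0.14) and Psma4 (0.68, SE 0.16), but 0 did with library totals and 2 with the stricter filter. Far fewer of all genes rose with library totals than with TMM, and the share with the stricter filter is not given. In the 11 libraries 12 rose as well, against 17.7% of all genes.

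Of 9 costimulatory and checkpoint genes tested, 4 rose with 12 libraries and 8 without control unlesioned replicate 1, against 17.7% of all genes called as higher in the latter. Among the 4 were Havcr2, an inhibitory receptor (1.46, SE 0.31), Tnfsf9, the ligand of 4-1BB (1.46, SE 0.32), and Cd86, a ligand of CD28 (0.98, SE 0.25). Of 15 further genes named as class I heavy chains, 1 rose and 2 fell, and 3 rose and 2 fell in the 11 libraries. This list also holds H2-Ke6, a dehydrogenase gene named for its place in the MHC. H2-M3 rose (0.81, SE 0.25) but was called in only 17 of 26 settings. The 2 that fell with 12 libraries, H2-Bl and H2-Q1, did not exceed 1.21 CPM in any library. Of 16 genes of the interferon gamma axis 4 rose, including the receptor chains Ifngr1 (0.69, SE 0.18) and Ifngr2 (0.70, SE 0.16) and the transcription factor Irf8 (0.75, SE 0.18), but 0 rose with library totals or the stricter filter. In the 11 libraries 9 of the 16 rose, and 0 and 1 did with these scalings. Over all genes and 12 libraries, far fewer rose with library totals than with TMM. Irf1 and Ifng did not pass, with log2 fold changes of 0.04 (SE 0.29) and 0.08 (SE 0.35) in 12 libraries and of 0.51 (SE 0.17, adjusted p = 0.0272) and 0.36 (SE 0.34, adjusted p = 0.389) in the 11. For Irf1 the adjusted threshold was passed there and the unadjusted one of 0.01 was not.

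The interferon gamma axis followed the MHC genes in control unlesioned replicate 1. All 16 genes of this list were highest there among the 6 unlesioned libraries (21.1% of all genes), 10 were highest there among all 12 (7.04% of all genes), and the median level was 3.64-fold that of control unlesioned replicates 2 and 3. Ifng itself was at 5.62, 2.40 and 2.48 CPM in the 3 control unlesioned libraries, and at most 5.10 in the other 11. Irf1, which binds interferon response elements, was at 505, 115 and 169 CPM, and at most 308 elsewhere. Nlrc5 was at 63.3, 9.09 and 13.9 CPM, and mutant 4dpl replicate 1 was next with 60.3. Gbp2, an interferon-induced GTPase chosen after its values were seen, showed a larger gap, with 146, 12.5 and 11.3 CPM and at most 44.0 elsewhere, as did the checkpoint ligand Cd274, chosen in the same way, with 135, 5.89 and 5.49 CPM.

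**Figure D4:**
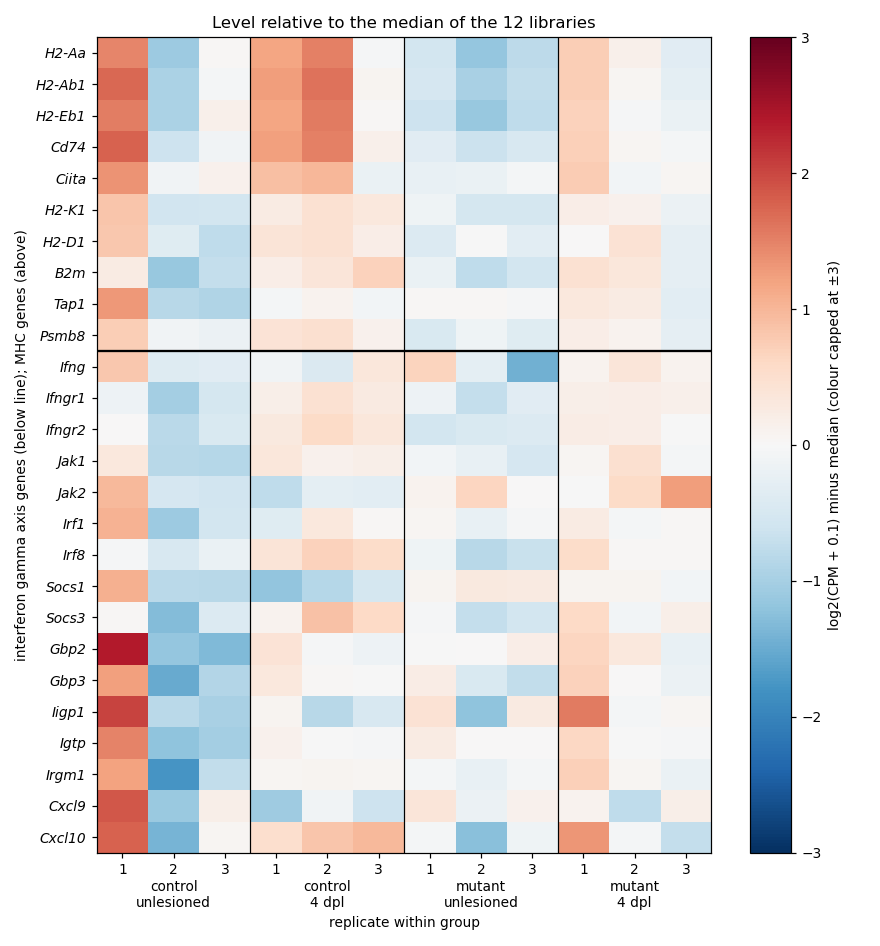
Level of the 10 MHC genes (above the line) and 16 interferon gamma axis genes (below it) in each of the 12 libraries, as log2(CPM + 0.1) minus the gene's median over the libraries. Control unlesioned replicate 1 is above the median for all 10 MHC genes, and Gbp2 is at 146 CPM there.

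Markers of the cell types that the preparation could hold were summed in each library, and their part in the results was not tested. In bulk RNA, fewer cells of a type and less RNA per cell cannot be told apart. Microglia markers (9 of 9 detected) summed to 2576 to 5312 CPM in control unlesioned and 8938 to 15080 in control 4dpl libraries, and to 2895 to 9654 and 8813 to 13770 CPM in the mutant. Control unlesioned replicate 1 had 4631 CPM, within its group, and 0 of the 9 markers was highest there among unlesioned libraries. The summed class II level (H2-Aa, H2-Ab1, H2-Eb1 and Cd74) over that of microglia markers was 0.549 in this library and between 0.0559 and 0.207 in the other 11. This ratio overlapped between lesioned libraries (0.0559 to 0.207) and the 5 other unlesioned libraries (0.0605 to 0.177), so that class II relative to microglia markers did not separate the lesion states. For the class I sum (H2-K1, H2-D1 and B2m) the gap was smaller. Its ratio to microglia markers was 1.763 in control unlesioned replicate 1 and 0.429 to 1.449 in the other 11, with mutant unlesioned replicate 2 next.

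**Figure D5:**
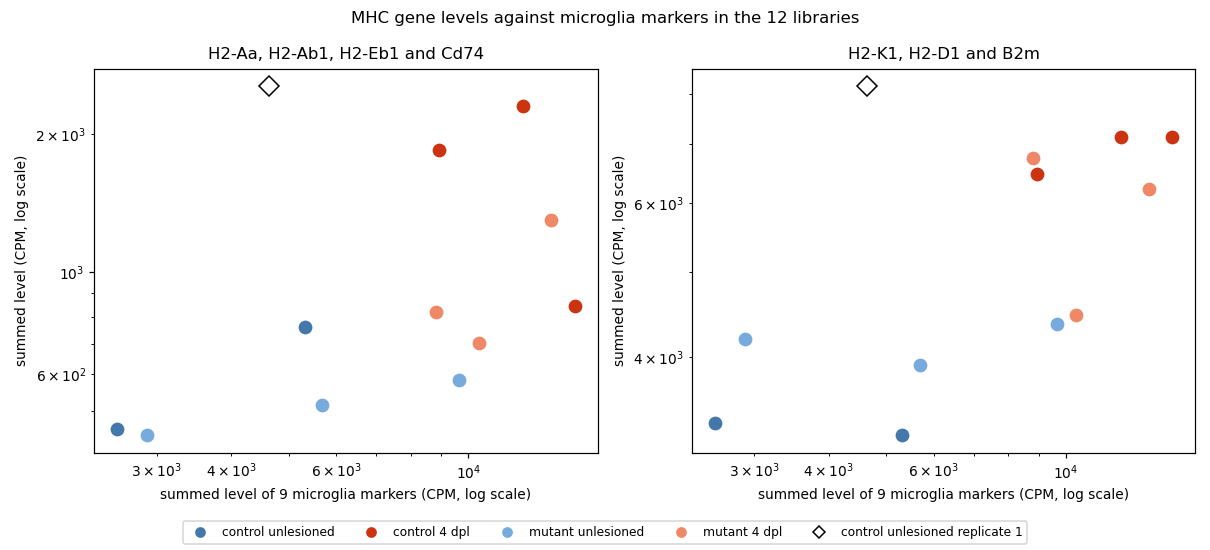
Summed level of H2-Aa, H2-Ab1, H2-Eb1 and Cd74 (left) and of H2-K1, H2-D1 and B2m (right) against that of 9 microglia markers, in CPM on log axes, 1 point per library. Control unlesioned replicate 1 (open diamond) has the highest sums, 2544 and 8162 CPM, at a microglia marker sum of 4631 CPM.

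Other markers moved with this library to different degrees. T cell markers (8 of 8 detected) summed to 130.0 CPM there, the highest of 12 libraries, beside 62.9 and 51.4 in its group, and B cell markers (6 of 6) to 86.4 CPM, also the highest, beside 57.0 and 45.7. Dendritic cell markers (8 of 8) summed to 108 CPM, beside 43.5 and 60.5, and to 70.8 to 123 CPM in control 4dpl libraries. Border macrophage markers (7 of 7) summed to 384 CPM, beside 108 and 232, and to 483 to 839 CPM in control 4dpl but 217 to 489.7 in mutant 4dpl libraries. Neutrophil markers (7 of 7) were abundant in each library, 21810 to 119600 CPM, more than the 14740 to 70330 CPM of oligodendrocyte markers (8 of 8) at their upper end, in preparations labelled as enriched for oligodendroglia. Neutrophil sums were 45410 to 98140 CPM in control unlesioned and 29180 to 36310 in control 4dpl libraries, but overlapped in the mutant (30450 to 119600 and 21810 to 109500 CPM). Monocyte sums (6 of 6 markers) were 6590 CPM in control unlesioned replicate 1, beside 3255 and 2350, and reached 7184 CPM in mutant unlesioned replicate 2 and 6511 in mutant 4dpl replicate 2.

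The non-members whose log2 CPM was most like the mean of the 4 class II genes over the 12 libraries, among 13606 genes, were Gpr35 (r = 0.965), Ppa1 (0.952), Tgm2 (0.95), Ccl7 (0.948) and H2-DMb1 (0.933). In the other 11 libraries, Ppa1 and Gpr35 were again among the first 5. For the mean of H2-K1, H2-D1 and B2m they were Plekho2 (0.985), Csrnp1 (0.974), Clec7a (0.973), Shisa5 (0.971) and Ptger4 (0.971), of which Shisa5 and Plekho2 were again among the first 5 of the 11 libraries.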

How the data were processed

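The authors prepared RNA-seq libraries from the dissociated tissue and deposited raw counts per gene, made by aligning reads to mm10 with BWA and counting unique alignments over Ensembl exons of GRCm38 with featureCounts. The submitters' processing notes name STAR and DESeq2 1.2.5 as well. The strand setting is not given in the sources used here. The counts summed to 34805086 to 67251544 per library, and the 3 libraries per group limit the precision.

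Genes were filtered with filterByExpr, scaled by TMM and fitted with edgeR 4.0.16 (R 4.3.3), using the quasi-likelihood test with 1 mean per group over the 12 libraries. A gene was called at p under 0.01 and a Benjamini-Hochberg adjusted p under 0.05 over all 31109 genes tested. The script was tested on simulated data. Alternatives used DESeq2 1.42.0, voom with sample weights in limma 3.58.1, other scalings and filters, replicate blocks and each library left out. Likeness between genes was computed over genes with a mean log2 CPM above 1. The non-members named were, by rule, Tet1, the 3 genes of each list with the smallest p averaged over genotypes, Nlrc5, H2-Ea-ps, the proteasome pairs, Ifng, Irf1 and the 5 genes most like each class. Dexi and Patl2 were named because they overlap a member, and H2-Ke6 to describe its list. Any other is said to have been chosen after its values were seen. A further gene of the interferon gamma list is not reported here. The members, lists and alternatives were chosen with earlier results of these data known.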

Additional observations from a re-analysis of the deposited data

How the results depend on the processing

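Among the values of single members, 469 kept their direction and their side of the thresholds under alternatives other than leaving out a library, 31 newly passed and 50 changed sign. With a library left out, these counts were 814, 42 and 104. A value that changed sign and also passed is counted with the sign changes only. An example is the lesion difference of Tap1 in control, at -0.248 with all libraries and 0.892 without control unlesioned replicate 1. The combinations of leaving out control unlesioned replicate 1 with another scaling, filter or tool were chosen after seeing the data, and are included in the ranges below. The causes of these changes were not tested.

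In control, the members called after lesion were 0 with 12 libraries, 7 with voom and sample weights, and 0 to 8 with a library left out, where control unlesioned replicate 1 was the only library whose loss gave any call. In the mutant they were 0, and 1 with voom. Averaged over genotypes they were 0, 8 with voom, 3 with no filter on low counts, 1 each with DESeq2, with edgeR's newer dispersion method and at an adjusted p under 0.10 alone, and 0 to 9 with a library left out (9 without control unlesioned replicate 1, 1 without mutant unlesioned replicate 1 and 1 without mutant 4dpl replicate 3). Between genotypes in unlesioned tissue they were 0 to 1 with a library left out, the 1 being Tap1 with DESeq2. Where no share of all genes is given for a setting, its count of members is not set against a background.

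Replicate numbers did not establish pairs, since deviations of same-numbered libraries correlated at 0.189, 0.052 and 0.189 in control and at -0.03, 0.073 and -0.07 in mutant, and at -0.089 to -0.023 by the study's sample numbers. With a replicate block by label number, 1 member was called averaged over genotypes, Tap1 was at 0.013 between genotypes unlesioned and 0.026 averaged over genotypes, and the interaction of H2-D1 was -0.074. With a replicate block by the study's numbers, control unlesioned replicate 1 had no partner. In that block 4 members were called in control and 5 averaged over genotypes. Its count over all genes in control is given below, and its averaged count over all genes is not given. Tap1 was at 0.90 in control, -0.03 in mutant and 0.43 averaged with this block.

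Signs changed as follows on the log2 scale. With library totals, the lesion difference in control was -0.19 for Ciita and -0.15 for Psmb8, in mutant -0.022 for H2-K1, -0.16 for H2-D1, -0.38 for Tap1 and -0.14 for Psmb8, and averaged -0.092 for Ciita, -0.047 for H2-D1 and -0.14 for Psmb8. The unlesioned genotype difference was then 0.145 for B2m and 0.069 for Tap1, and the interaction -0.068 for H2-K1 and -0.23 for H2-D1. With the stricter filter, the lesion difference in control was -0.20 for Ciita and -0.16 for Psmb8, in mutant -0.051 for H2-D1, -0.27 for Tap1 and -0.036 for Psmb8, and averaged -0.051 for Ciita, -0.006 for H2-D1 and -0.10 for Psmb8. The genotype difference of B2m was 0.027 and the interaction of H2-D1 -0.088. With DESeq2 or RLE size factors Tap1 was at -0.04 in mutant and the interaction of H2-D1 at -0.07, with only the compared groups fitted Tap1 was at -0.13 in mutant, and with no filter the interaction of H2-D1 was -0.008 and Tap1 0.015 averaged. With voom, Tap1 was at 0.67 in control and 0.43 averaged, the unlesioned genotype difference was 0.005 for H2-K1, 0.13 for H2-D1, 0.37 for B2m and 0.68 for Tap1, and the interaction was -0.25 for H2-Aa, -0.38 for H2-Ab1, -0.25 for H2-Eb1, -0.39 for Cd74, -0.04 for Ciita, -0.24 for H2-K1, -0.33 for H2-D1 and -0.49 for Tap1.

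With 1 library left out, the lesion difference in control was between -0.023 and 1.44 for Cd74, -0.18 and 0.69 for Ciita, -0.59 and 0.89 for Tap1 and -0.027 and 0.52 for Psmb8. In mutant it was between -0.022 and 0.63 for H2-K1, -0.16 and 0.50 for H2-D1, -0.38 and 0.29 for Tap1 and -0.14 and 0.49 for Psmb8, and averaged between -0.24 and 0.51 for Tap1 and -0.065 and 0.44 for Psmb8. The unlesioned genotype difference was between -0.70 and 0.18 for H2-K1, -0.58 and 0.33 for H2-D1, -0.33 and 0.44 for B2m and -0.59 and 0.90 for Tap1. The interaction was between -0.45 and 0.96 for H2-Aa, -0.67 and 0.93 for H2-Ab1, -0.40 and 0.96 for H2-Eb1, -0.71 and 0.81 for Cd74, -0.25 and 0.67 for Ciita, -0.51 and 0.42 for H2-K1, -0.64 and 0.31 for H2-D1, -0.70 and 0.11 for B2m, -0.82 and 0.70 for Tap1 and -0.21 and 0.38 for Psmb8.

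Over all genes, the count called in control was 3150 with 12 libraries and 1002 to 9663 under the alternatives that kept them (the lowest with the study's block, the highest with voom), and in mutant 42 and 0 to 6800 (the lowest with either block). Averaged over genotypes it was 10194 and 2811 to 14425, and with library totals 797 rose and 8883 fell, beside 4423 and 5771. Between genotypes it was 0 with 12 libraries and up to 45 unlesioned and 227 at 4dpl, both with DESeq2. The smallest count of any member in a library was 243 (Ciita).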
